A study of Homo sapiens with 4 samples.

Results

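The 10 genes examined here encode costimulatory and adhesion molecules through which B cells and T cells engage each other, namely CD40, CD70, CD80, CD86, CD27, CD83, CD58, CD48, ICOSLG and TNFSF9. They were read by all probe sets of the deposited table whose platform annotation names 1 of these symbols alone, 26 of 54613 probe sets for the 10 genes. RNA came from Raji, an established Burkitt lymphoma line that carries Epstein-Barr virus. The groups were a control clone and a clone with DLEU1, a long non-coding RNA gene, downregulated by means of TALENs (engineered DNA-cutting enzymes), each measured on 2 Affymetrix HG-U133 Plus 2.0 arrays. Both clones grew in RPMI medium with fetal serum. Each genotype was 1 clone, so the effect of DLEU1 and a difference between clones cannot be told apart, and the labels do not say whether the duplicates were separate cultures, so the p-values cover array-to-array spread alone, which may be technical.

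These molecules work in pairs across the contact between a B cell and a T cell. CD40 is the receptor on B cells for CD40LG of activated T cells, and it signals through TRAF adaptors to NF-kB. CD80 and CD86 bind CD28 and CTLA4, ICOSLG binds ICOS, CD70 binds CD27, and TNFSF9 binds TNFRSF9. CD58 and CD48 are small adhesion ligands of the immunoglobulin superfamily, bound by CD2 and by CD244 respectively, and CD83 is a surface marker of activated B cells and dendritic cells. In B cells carrying Epstein-Barr virus, the viral protein LMP1 can imitate an active CD40, and Burkitt lymphoma cells that lack it are known for low levels of CD58 and ICAM1.

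DLEU1 itself had intensities of 1363.4 and 1023.8 in the control clone against 523.7 and 616.9 in the downregulated clone, in the direction of the labels. The arrays did not share a common brightness, with trimmed means of 131 to 197, so changes are given on the quantile scale: log2 of the intensity plus 16, with all arrays brought to 1 distribution. On this scale DLEU1 fell by 1.38 (SE 0.07, limma adjusted p = 2.9e-06). The values as deposited form a second scale, given beside it because it shifts the median of all tested probe sets by 0.16, against 0.01 on the quantile scale. With 2 arrays a group, an exact two-sided permutation test cannot go below p = 0.333, the value for every probe set whose groups do not overlap, so the calls rest on limma's pooled spread. B-cell markers were bright (summed intensity of 11 genes from 18810 to 23340 over the arrays), against summed intensities of 260.3 to 327.8 for T-cell, 93.3 to 143.4 for myeloid and dendritic and 98.8 to 127.1 for NK-cell markers. Among these, CD3D, CD3E, CD3G, CD14, LYZ, NCAM1 and KLRD1 read at most 20 on any array, while LCK reached 149.5, CD247 109.3, NKG7 64.2, TRAT1 59.1 and PRF1 34.9.

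Of the 10 genes, each read by its brightest probe set, all were bright enough to be tested. CD40, ICOSLG and CD58 were higher in the downregulated clone, CD48 and CD86 were lower, and CD70, CD80, CD83, CD27 and TNFSF9 did not pass the adjusted threshold of 0.05. The 3 rises stand beside 20.6% of all 13292 tested genes that rose, and the 2 falls beside 20.6% that fell, so neither count departs far from the background. As deposited, 3 genes rose (CD40, ICOSLG and CD70, against 20.3% of all genes) and limma called 0 falls by brightest probe sets, also 0 at an unadjusted p under 0.05 (5.74% of all genes fell). The median change of the 10 genes was -0.01 on the quantile scale and 0.33 as deposited, beside -0.01 and 0.19 for all tested genes. By probe set, 10 of 26 rose and 4 fell, where 17% and 16.7% of all tested probe sets did, and 10 rose and 1 fell as deposited, where 17.2% and 5.11% did. The rises on the quantile scale all came from CD40, CD58 and ICOSLG, and those as deposited from these genes and CD70. Probe sets of the same gene are not independent, so these counts show no excess beyond the counts by gene. On the quantile scale 4 genes were higher on both downregulated arrays than on either control array (CD40, CD70, CD58 and ICOSLG) and 4 lower (CD80, CD86, CD83 and CD48), beside 34% and 35.9% of all tested genes.

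**Figure D1:**
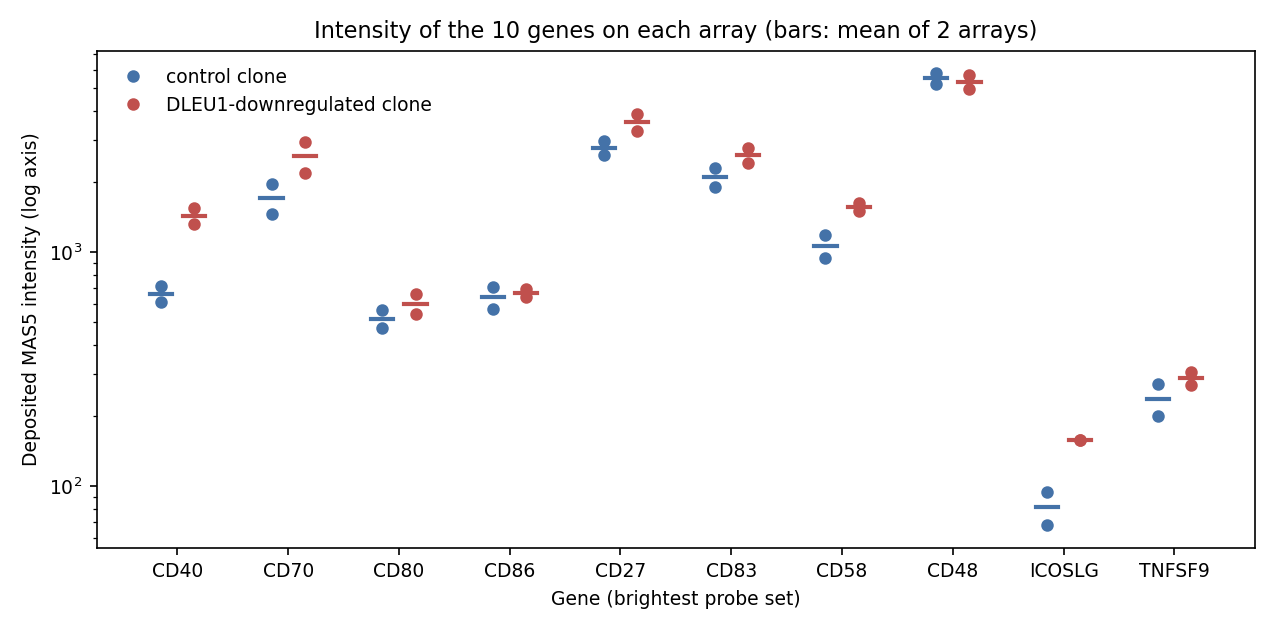
Deposited MAS5 intensity (log axis) of the 10 genes, each by its brightest probe set, with a point for each array and a bar for the mean of the 2 arrays of a clone. The CD40 and ICOSLG points of the downregulated clone lie well above those of the control clone, and the CD48, CD80, CD86 and TNFSF9 points interleave. Levels of different genes come from different probes and are not comparable.

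CD40, the receptor through which T-cell help reaches the B cell, rose in 3 of its 4 probe sets under every alternative that gave them a value. In bulk RNA, a higher level in each cell and a larger share of expressing cells cannot be told apart. The brightest, 35150_at, read 715.3 and 611.8 in the control clone and 1318.4 and 1541.3 in the downregulated clone (mean 663.6 ± 73.2 against 1430 ± 158, SD, n = 2 arrays each). Both downregulated arrays lay above both control arrays, by a ratio of means of 2.15. Its log2 change was 0.74 on the quantile scale (SE 0.06, 95% interval 0.59 to 0.89, limma adjusted p = 4.64e-05) and 1.09 as deposited (limma adjusted p = 9.3e-05). Probe set 205153_s_at went from 526.3 and 409.2 to 1157.8 and 1380, a change of 1.07 on the quantile scale. The third, 215346_at, went from 236 and 225.8 to 477.5 and 608.6, a change of 0.85. The dimmest, 222292_at, read 58.5 and 63.6 against 72 and 97.1, and its change of 0.19 on the quantile scale did not pass (limma adjusted p = 0.482). Over the alternatives the brightest probe set's change ran from 0.69 to 1.13.

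The genes whose 4 centred array values lay closest to those of CD40 were TAPBP, RHBDD2 and PAG1, at Euclidean distances of 0.0325, 0.0329 and 0.0339 log2 units. TAPBP, which helps load peptide onto MHC class I, changed by 0.76, RHBDD2 by 0.71 and PAG1, a membrane adaptor of Src-family kinase control, by 0.75 on the quantile scale. With 4 arrays in 2 clones a looser likeness is common: 872 of 13291 other genes lay within 0.25 of CD40. That radius is wider than the distances of TAPBP, RHBDD2 and PAG1, so it does not show how common their closeness is.

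CD27, the TNF-receptor family partner of CD70, had a single probe set that read 2982.2 and 2605.5 in the control clone and 3288.8 and 3888.8 in the downregulated clone. The deposited groups did not overlap, but after quantile normalization they did, and the change of 0.36 as deposited became -0.01 on the quantile scale (95% interval -0.11 to 0.10, limma adjusted p = 0.927). CD70, its ligand, read 1947.3 and 1455.8 against 2179.8 and 2948.9, a ratio of means of 1.51. Here the call depends on the scale: the change was 0.59 as deposited (limma adjusted p = 0.0288) and 0.21 on the quantile scale (95% interval 0.02 to 0.39, limma adjusted p = 0.0863). CD70 also passed with median centring (0.63, limma adjusted p = 3.67e-06), with a common trimmed mean (0.26, limma adjusted p = 0.0453) and without downregulated replicate 1 (0.33, limma adjusted p = 0.0212). The change was 0.08 without downregulated replicate 2 (limma adjusted p = 0.52) and 0.14 without control replicate 2 (limma adjusted p = 0.314), so this receptor and its ligand gave no change that passed on both scales.

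TNFSF9, a TNF-family ligand that costimulates T cells, read 273.2 and 198.8 in the control clone and 270.5 and 307.3 in the downregulated clone. These groups overlapped on both scales, with a change of -0.01 on the quantile scale (95% interval -0.24 to 0.21, limma adjusted p = 0.933) that was 0.29 as deposited. Its receptor TNFRSF9 rose, from 43.4 and 30.5 to 214.8 and 191.7, by 1.89 on the quantile scale (limma adjusted p = 4.86e-05) and 2.06 as deposited.

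Among the B7-family ligands on the quantile scale, ICOSLG was higher, CD86 was lower in all 3 of its probe sets (in 1 as deposited), and CD80 passed in none. ICOSLG binds ICOS on follicular helper T cells. Its brightest probe set, 211197_s_at, read 94.6 and 68 in the control clone and 156.7 and 157.6 in the downregulated clone, a ratio of means of 1.93. The change was 0.61 on the quantile scale (SE 0.14, limma adjusted p = 0.00934) and 0.85 as deposited (limma adjusted p = 0.00728), but without downregulated replicate 1 it was 0.46 and did not pass (limma adjusted p = 0.135). Probe set 228976_at, nearly as bright, went from 78.3 and 58.3 to 167.7 and 169.3, a change of 0.92 on the quantile scale that passed under every alternative that could be fitted. Of the other 3, 211199_s_at (3.7 and 4.5 against 41.2 and 37) and 211198_s_at (13.5 and 2.6 against 35.8 and 28.5) also rose, from control levels below the added 16, so that number sets their change in part. With no detection calls to hand, those control levels may lie within background. Both probe sets were bright enough to be tested only through their downregulated arrays, so their calls add no separate support. Without control replicate 2 or downregulated replicate 1, 211198_s_at no longer passed (0.83, limma adjusted p = 0.0636, and 0.94, limma adjusted p = 0.119). Probe set 213450_s_at, at 90.5 and 75.1 against 117.4 and 154.3, did not pass (0.38, limma adjusted p = 0.0706). All 5 were higher on both downregulated arrays than on either control array. On the quantile scale this held for 34% of all tested genes by brightest probe set, and the share over probe sets was not computed. The 5 read the same gene, so they are not separate evidence.

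CD86, a ligand of CD28 that rises early when B cells are activated, moved the opposite way. Its dimmest probe set, 205686_s_at, read 242.7 and 178.1 in the control clone and 119.5 and 123.5 in the downregulated clone. The groups did not overlap on either scale, and the change was -0.97 on the quantile scale (SE 0.12, limma adjusted p = 3.09e-04) and -0.70 as deposited (limma adjusted p = 0.0326), and it passed under every alternative that could be fitted. Probe set 205685_at read 428.4 and 272.5 against 264.7 and 289.1, overlapping as deposited, with a change of -0.61 on the quantile scale (limma adjusted p = 0.00369) and -0.29 as deposited (limma adjusted p = 0.465). The brightest, 210895_s_at, read 706 and 573.2 against 643.4 and 693.7. Its deposited values interleave, and the change of -0.28 on the quantile scale (limma adjusted p = 0.0156) was 0.07 as deposited (limma adjusted p = 0.887), so the direction of this probe set turns with the scale. It also lost its call without control replicate 2 (-0.27, limma adjusted p = 0.0536) and without downregulated replicate 2 (-0.23, limma adjusted p = 0.125). The 3 probe sets therefore share a direction on the quantile scale but differ in size, from -0.97 to -0.28.

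CD80, the other CD28 ligand, read 565.9 and 472.9 against 544.3 and 660.8 in its brightest probe set. The change was -0.14 on the quantile scale (95% interval -0.31 to 0.03, limma adjusted p = 0.190) and 0.21 as deposited (limma adjusted p = 0.615). Its dimmer probe sets changed by 0.11 (337 and 224.9 against 383.1 and 371.6) and 0.48 (44.5 and 33.6 against 60.1 and 74.9) without passing. The brightest and the 2 dimmer CD80 probe sets had opposite signs on the quantile scale.

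**Figure D2:**
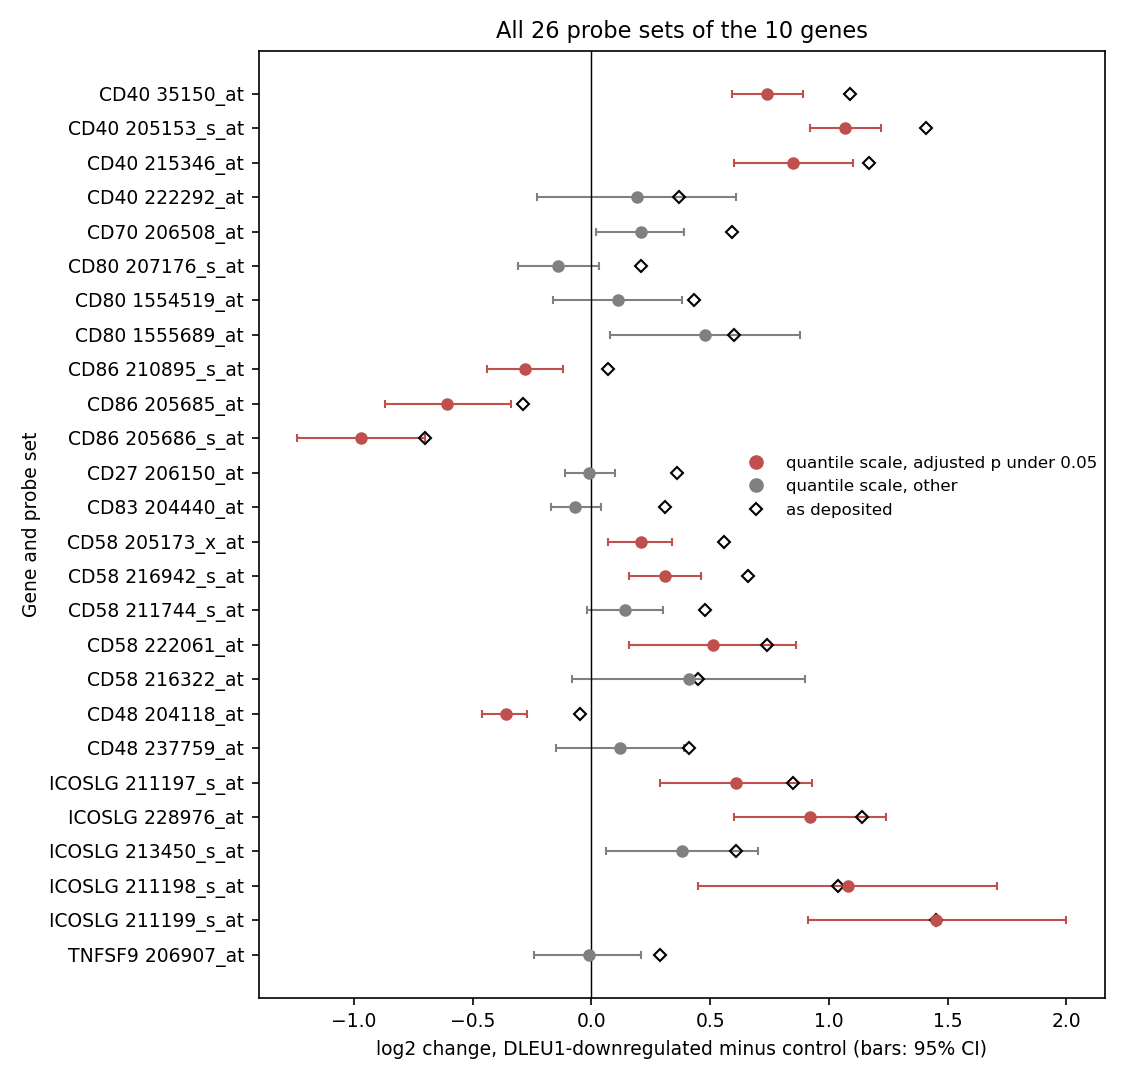
Log2 change of all 26 probe sets, downregulated minus control, with filled points for the quantile scale (bars are 95% intervals, red where the adjusted p is under 0.05) and open diamonds for the values as deposited. The CD40 and ICOSLG probe sets lie to the right of 0 and the CD86 probe sets to the left, with the brightest CD86 probe set at -0.28 on the quantile scale and at 0.07 as deposited.

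Sequence upstream of the start sites is shown for the B7 ligands that moved in opposite directions on the quantile scale. It covers the 250 bases ending at each start from RefSeq on GRCh38.p14, with motif matches in capitals. Of the 10 genes, 8 had an entry in that table, with 10 start sites in all. CD40 and CD70 had none, so the search does not cover them. The motifs searched on both strands were the NF-kB consensus and the AP-1 element TGANTCA. They occur in 9.96% and 6.57% of all 35116 start sites of the same length. ICOSLG (chr21:44240944-44241193, minus strand) and the upstream start of CD86 (chr3:122055112-122055361, plus strand) hold neither. The downstream start of CD86 (chr3:122077534-122077783, plus strand) holds an NF-kB match that begins 82 bases before the start, in 2 overlapping registers.
ICOSLG: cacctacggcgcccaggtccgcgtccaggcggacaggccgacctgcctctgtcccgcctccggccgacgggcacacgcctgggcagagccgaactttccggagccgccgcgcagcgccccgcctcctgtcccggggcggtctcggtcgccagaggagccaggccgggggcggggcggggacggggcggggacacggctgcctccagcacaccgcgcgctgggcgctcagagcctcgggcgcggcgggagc
CD86 upstream start: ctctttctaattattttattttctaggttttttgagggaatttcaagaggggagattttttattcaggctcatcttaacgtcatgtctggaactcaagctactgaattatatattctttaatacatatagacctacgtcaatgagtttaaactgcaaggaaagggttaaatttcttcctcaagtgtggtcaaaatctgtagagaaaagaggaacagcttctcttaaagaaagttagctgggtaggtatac
CD86 downstream start: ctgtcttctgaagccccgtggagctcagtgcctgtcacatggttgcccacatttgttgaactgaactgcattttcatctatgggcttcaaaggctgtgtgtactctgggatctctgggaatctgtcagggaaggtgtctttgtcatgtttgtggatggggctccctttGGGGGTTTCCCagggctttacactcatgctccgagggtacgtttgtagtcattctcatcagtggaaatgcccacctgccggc

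The adhesion ligands CD58 and CD48 differed in direction on the quantile scale. CD58, bound by CD2 on T cells and NK cells, read 1183.8 and 939.1 in the control clone and 1494.6 and 1621.6 in the downregulated clone in its brightest probe set, 205173_x_at, whose suffix marks possible cross-hybridisation. The groups did not overlap, and the change was 0.21 on the quantile scale (SE 0.06, limma adjusted p = 0.0245) and 0.56 as deposited (limma adjusted p = 0.0621). That call was lost without control replicate 2 (0.20, limma adjusted p = 0.0701), downregulated replicate 1 (0.17, limma adjusted p = 0.181) or downregulated replicate 2 (0.25, limma adjusted p = 0.0577). Probe set 216942_s_at went from 611.2 and 485.9 to 806 and 946.7 and passed on both scales (0.31, limma adjusted p = 0.00700, and 0.66 as deposited, limma adjusted p = 0.0354). Without downregulated replicate 2 it did not (0.29, limma adjusted p = 0.0618). Probe set 222061_at went from 104.2 and 67 to 130.1 and 175.2 and also passed on both scales, by 0.51 and 0.74. It lost its call without control replicate 2 (0.38), downregulated replicate 1 (0.61) or downregulated replicate 2 (0.39). The other 2 probe sets changed by 0.14 and 0.41 and did not pass. All 5 probe sets of this gene were higher on both downregulated arrays, as were 34% of all tested genes by brightest probe set on the quantile scale.

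CD48, a membrane-anchored ligand of CD244 with weak affinity for CD2, was measured by a very bright probe set, 204118_at, at 5800.5 and 5235.1 in the control clone and 4975.9 and 5725 in the downregulated clone. As deposited the groups interleave and the change was -0.05 (limma adjusted p = 0.891). After quantile normalization the same arrays read 5956 and 6276 against 4697 and 4799, a change of -0.36 (SE 0.04, limma adjusted p = 2.25e-04). The fall is thus one relative to other bright probe sets of the same array. A dim second probe set, 237759_at, read 201.2 and 136.7 against 207.9 and 244.2 and changed by 0.12 without passing (limma adjusted p = 0.473), so the CD48 probe sets differ in sign.

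The region before each start of CD58 (chr1:116571027-116571276, minus strand) and CD48 (chr1:160711823-160712072, minus strand) is given because these adhesion ligands moved in opposite directions on the quantile scale. Neither holds an NF-kB or AP-1 match in these letters.
CD58: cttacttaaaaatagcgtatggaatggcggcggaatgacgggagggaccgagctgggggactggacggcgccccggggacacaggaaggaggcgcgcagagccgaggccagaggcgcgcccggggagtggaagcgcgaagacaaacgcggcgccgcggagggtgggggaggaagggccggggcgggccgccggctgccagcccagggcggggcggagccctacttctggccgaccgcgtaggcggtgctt
CD48: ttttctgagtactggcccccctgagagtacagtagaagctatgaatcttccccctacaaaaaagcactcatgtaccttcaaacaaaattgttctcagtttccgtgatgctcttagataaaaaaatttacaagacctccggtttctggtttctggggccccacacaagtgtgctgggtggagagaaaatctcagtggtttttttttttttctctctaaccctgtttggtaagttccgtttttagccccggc

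CD83, the activation marker, read 2295.7 and 1889.6 in the control clone and 2401 and 2782.8 in the downregulated clone. The deposited values differed by 0.31 without passing (limma adjusted p = 0.294), and on the quantile scale the change was -0.07 (95% interval -0.17 to 0.04, limma adjusted p = 0.319). Among the 10 start sites, the downstream start of CD83 (chr6:14117522-14117771, plus strand) had the most NF-kB matches, 6 in 3 separate stretches, the farthest beginning 134 bases before the start. It is shown for its number of matches, and whether they bear on expression was not tested. CD80, CD27 and TNFSF9, which also did not pass, are not shown. Of the 10 start sites, 2 held an NF-kB match and 1 an AP-1 match, beside 9.96% and 6.57% of all start sites. The AP-1 match lay before CD27, beginning 236 bases before the start.
CD83 downstream start: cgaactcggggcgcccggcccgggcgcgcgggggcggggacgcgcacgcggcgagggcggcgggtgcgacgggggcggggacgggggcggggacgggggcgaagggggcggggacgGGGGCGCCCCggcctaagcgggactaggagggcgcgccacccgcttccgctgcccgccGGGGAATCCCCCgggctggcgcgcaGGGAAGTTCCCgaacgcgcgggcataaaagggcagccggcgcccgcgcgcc

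Other genes of the same pathways were read from lists chosen with earlier results of these data known, each gene by its brightest probe set and on the quantile scale unless stated. Every list count stands beside 20.6% of all tested genes that rose and 20.6% that fell. As deposited these shares were 20.3% and 5.74%. Of 12 tested B7 and TNF-family ligands outside the set, 3 rose (LTA, TNF and TNFSF4) and 4 fell (TNFSF10, LTB, TNFSF15 and TNFSF8), and 3 rose and 3 fell as deposited, where LTB did not pass. TNFSF8 (31 and 19 against 6.6 and 2.4) was bright enough to be tested only through its control arrays, which favoured its call. LTA, lymphotoxin alpha, read 53.5 and 53.3 against 132.4 and 127.9 (change 0.88, limma adjusted p = 0.00347), and TNFSF10, the death ligand TRAIL, read 107.3 and 89.4 against 35.9 and 40.3 (change -1.23, limma adjusted p = 4.42e-04). Limma's count of rises dropped to 0 without downregulated replicate 1 (2 at an unadjusted p under 0.05), and that of falls to 2 without control replicate 2 or downregulated replicate 2. CD274, the checkpoint ligand PD-L1, changed by 0.17 and did not pass (limma adjusted p = 0.417, named after its value was seen).

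CD48 and CD58 belong to the same branch of the immunoglobulin superfamily as the SLAM receptors. Of 6 tested SLAM and CD2 family genes, 2 rose and 4 fell, and 1 rose and 2 fell as deposited. CD84, a self-binding SLAM receptor, went from 877.3 and 607.7 to 1870.7 and 2145.2 (change 1.07, limma adjusted p = 1.49e-05), and SLAMF6, of the same family, from 296.7 and 275.4 to 85.3 and 125.1 (change -1.61, limma adjusted p = 4.7e-05). The count of rises was 1 with any single array left out, and that of falls was 2 without downregulated replicate 2. The list of T-cell partners held 9 genes, of which CD5 and CD72 are not receptors for any of the 10 genes. In it 4 genes were tested and TNFRSF9 alone passed. CD28 (at most 23.6 on any array) and CTLA4 (at most 15.5) did not, nor did CD72, a B-cell surface protein that read 145.3 and 112.8 against 157.6 and 144.6. ICOS, CD2 and CD244 were too dim to be tested, at no more than 12 on any array. CD40LG, the ligand of CD40, had no probe set that named it alone, so it was not read.

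Downstream of CD40 and CD27, 5 of 16 tested adaptor and feedback genes rose and 4 fell, and 5 rose and 1 fell as deposited. TNFAIP3, the A20 inhibitor, read 1388.4 and 1055.7 against 2876.9 and 3442.6 (change 1.01, limma adjusted p = 4.43e-06), and TRAF1, an adaptor induced by NF-kB, read 158.7 and 149.2 against 542.7 and 567.3 (change 1.44, limma adjusted p = 2.09e-05). Against these, BIRC2, a ubiquitin ligase bound by TRAF proteins, changed by -0.68 on the quantile scale (limma adjusted p = 4.72e-05) and -0.32 as deposited (limma adjusted p = 0.342), and TRAF5, an adaptor of CD27 and CD40, fell on both scales (-0.92 and -0.67). Rises numbered 3 without downregulated replicate 2. Of 10 NF-kB subunits and inhibitors, 6 rose and 1 fell (REL, which changed by -0.56 on the quantile scale and -0.21 as deposited without passing there). As deposited 6 rose and limma called 0 falls, also 0 at an unadjusted p under 0.05. NFKBIA, the inhibitor that NF-kB induces, and its relative NFKBIE rose by 1.31 and 0.95. Without _x_at and _s_at probe sets, rises in this NF-kB list numbered 3 of 8 tested. Under eBayes without an intensity trend, rises in the adaptor list numbered 2.

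In the list of B-cell activation genes, 13 of 19 tested rose and 2 fell, where 20.6% of all tested genes rose and 20.6% fell. The median was 0.60 beside -0.01 for all tested genes. Since the list was chosen with earlier results known, that choice may have set its counts and median in part. As deposited 13 rose and 1 fell. The smallest p-values belonged to CCL22, EBI3, CD82 and BCL2A1, which rose by 3.60, 1.42, 1.60 and 1.30. EGR1 and GADD45B fell, with changes of -1.79 and -0.64. As deposited these were -1.58 and -0.28, where GADD45B did not pass (limma adjusted p = 0.461). ICAM1, the adhesion ligand of LFA-1, went from 423.2 and 382.3 to 948.8 and 1047.5 (named after its values were seen, change 0.92, limma adjusted p = 4.92e-05). B-cell markers had 1 rise and 8 falls among 11 tested, but limma called 1 rise and 0 falls as deposited (1 fall at an unadjusted p under 0.05), and the falls numbered 4 without downregulated replicate 1 and 5 without downregulated replicate 2. Of 7 tested T-cell markers 2 rose (CD247 and TRAT1) and 1 fell (LCK), with a summed intensity of 260.3 to 295.8 on the control arrays and 320.7 to 327.8 on the downregulated arrays. TRAT1 (12.7 and 9.7 against 39.5 and 59.1) was bright enough to be tested only through its downregulated arrays, which favoured its call. The part of these markers in the other results was not tested. None of the 4 tested myeloid or dendritic markers and 2 tested NK-cell markers passed in limma, and 0 had an unadjusted p under 0.05. The tested NK-cell markers, both parts of cytotoxic granules, were NKG7, which read 33.1 and 37.1 against 44.5 and 64.2, and PRF1, which read 32.9 and 29.0 against 29.1 and 34.9.

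**Figure D3:**
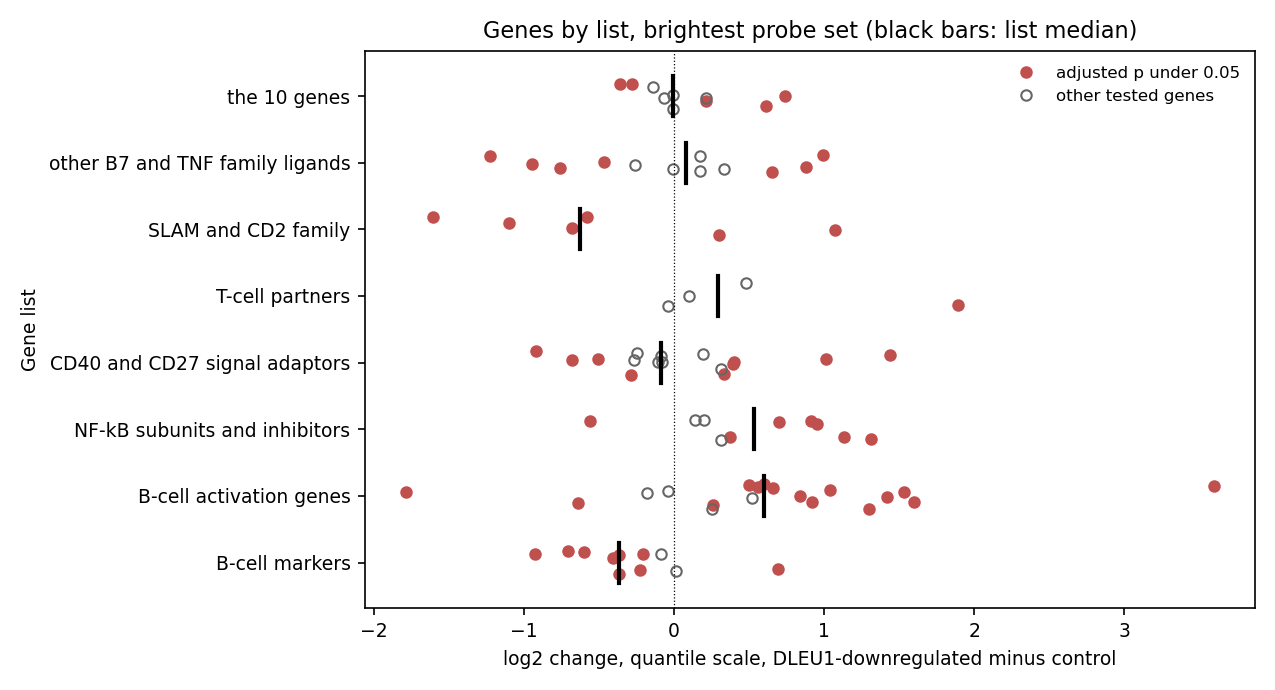
Log2 change on the quantile scale, downregulated minus control, of every tested gene in the 10-gene set and 7 related lists, with filled points for an adjusted p under 0.05 and black bars for list medians. The 10 genes lie between -0.36 and 0.74 around a median of -0.01, and the B-cell activation list has a median of 0.60. All were chosen with earlier results of these data known.

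Several of these calls depended on the scale. CD40 and ICOSLG were higher on 4 scales (as deposited, quantile-normalized, median-centred, trimmed-mean scaled). CD58 was higher on all 4 scales but passed on 3. CD27 and CD83 passed only with median centring, where both were higher. For CD86 and CD48 the brightest probe set passed only on the quantile, trimmed-mean and cyclic loess scales, and 205686_s_at of CD86 passed on every scale.

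**Figure D4:**
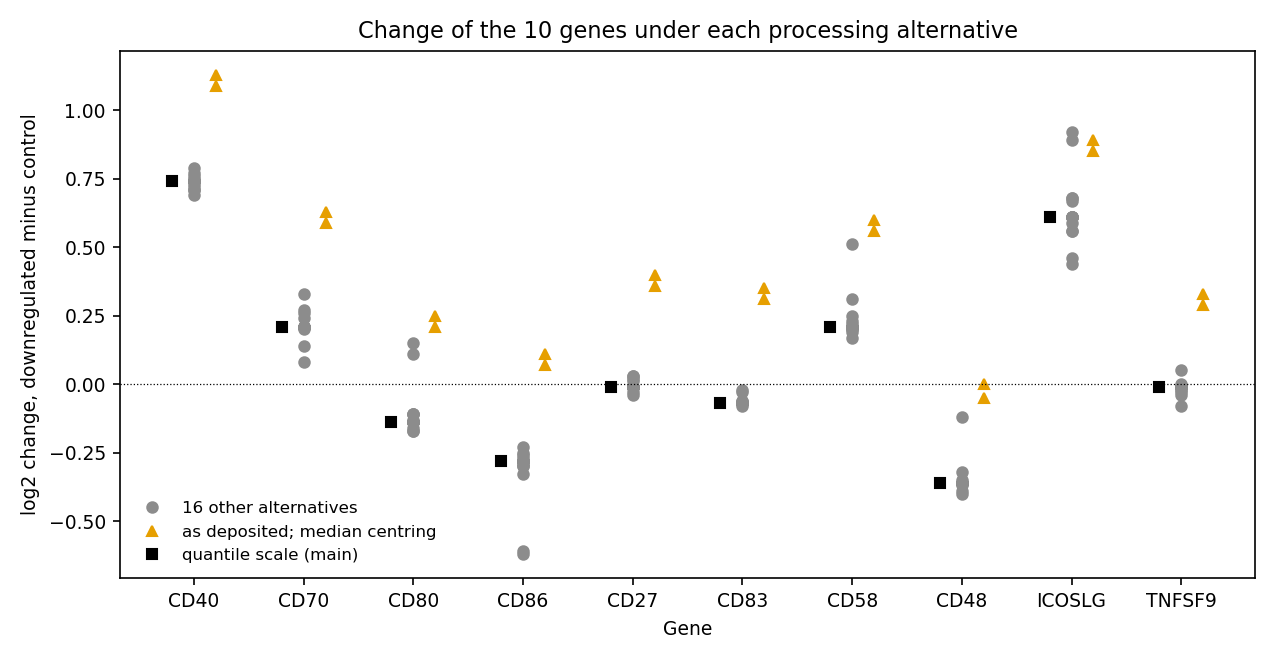
Log2 change of the 10 genes by brightest probe set under the main setting (black squares), the values as deposited and median centring (orange triangles) and 16 other alternatives (grey points). CD40 stays between 0.69 and 1.13, while CD80, CD83, CD27, CD86 and TNFSF9 lie on different sides of 0 in the triangles and the squares.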

How the data were processed

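The authors deposited 1 table of linear signal intensity for 54613 probe sets and 62 control probe sets on 4 arrays, made with MAS5 per the submitters' processing notes. The MAS5 version, target and detection calls are not given in the sources used here. MAS5 summarises each array alone, and the trimmed means (2% off each end) of 131 to 197 show no common target.

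From these values log2(intensity + 16) was taken, quantile-normalized without control probe sets, and tested with limma 3.58.1 in R 4.3.3 (lmFit, eBayes with an intensity trend, prior degrees of freedom 6.75), with Benjamini-Hochberg adjustment over 32768 probe sets. The 21845 dim probe sets with a mean under the 40th percentile were left out. Prior degrees of freedom were 145 with median centring and infinite as deposited. There the p-values rest almost wholly on the pooled spread, so they are not alike with those of the main fit. A gene was read by its brightest probe set among 41091 with 1 symbol in the 2016 platform annotation, and 41037 were updated by gene identifier through RefSeq. The fit was also run on simulated data with independent noise. That run held no differences between clones of the kind that may lie in these data, so it cannot bear on them. The labels name no batch, and the number of arrays limits the precision.

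The members, lists and tests were chosen with earlier results of these data known. Named genes are the 10 members with all their probe sets, DLEU1, up to 4 genes with the smallest p in each list, and the 3 genes nearest to CD40. Genes of a list named to say which ones passed, or at which low level a partner or marker read, were named after their values were seen. Alternatives were other normalizations (as deposited, median centring, trimmed mean, cyclic loess), pseudocounts 4 and 64, other filters, eBayes without trend or robust, a replicate block, probe set choices, a threshold of 0.01 and each array left out. Cyclic loess was added after the data were seen.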

Additional observations from a re-analysis of the deposited data

How the results depend on the processing

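DLEU1 and the brightest probe set of CD40 kept their direction and call under every alternative that gave a value, and of 458 changes recomputed for the 10 genes and DLEU1, 397 kept direction and call, 30 lost the call, 11 gained it and 20 turned direction. DLEU1 has no value without _x_at and _s_at probe sets, and some dim ICOSLG and CD58 probe sets have none where a filter removed them. Left out in turn, the 4 arrays gave 3352 to 5308 probe sets higher and 3653 to 4765 lower (5584 and 5488 with all), 2 to 3 member genes higher and 1 to 2 lower, and -1.43 to -1.33 for DLEU1. The cause of the changes below was not tested.

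Values as deposited gave 1673 lower probe sets and 0 lower member genes by limma, also 0 at an unadjusted p under 0.05 (CD86 205686_s_at, not its gene's brightest probe set, is lower there), and CD80 turned to 0.21, CD86 to 0.07, CD27 to 0.36, CD83 to 0.31 and TNFSF9 to 0.29. Median centring gave 10420 higher and 2482 lower probe sets, 80.8% of calls being higher against 50.4%. There 6 member genes were higher (CD40, CD70, CD27, CD83, CD58 and ICOSLG) and 0 lower (0 unadjusted). CD80 turned to 0.25, CD86 to 0.11 and TNFSF9 to 0.33 without passing. CD27 turned to 0.40 (limma adjusted p = 0.00104) and CD83 to 0.35 (limma adjusted p = 0.00775), both passing. As deposited 77.1% of calls were higher. CD27 turned to 0.03 with a common trimmed mean and 0.02 with cyclic loess. With each array left out, CD27 ran from -0.04 to 0.03, TNFSF9 from -0.08 to 0.05, CD40 222292_at from 0 to 0.39 (its lowest value just under 0 before rounding) and CD80 1554519_at from -0.02 to 0.24. CD80 turned to 0.11 without _x_at and _s_at probe sets and 0.15 by the mean of its probe sets.

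eBayes without a trend gave 3589 and 3590 probe sets and 0 lower member genes (2 unadjusted), where CD86 had adjusted p = 0.109, CD48 0.0620 and CD58 0.186 by limma. A threshold of 0.01 gave 3592 and 3563 with 1 lower member gene, and leaving out _x_at and _s_at probe sets 3296 and 3208 among fewer tested. The mean over the probe sets of a gene gave 1 lower member gene, CD48 going to -0.12. The array titles number the duplicates, but the labels do not say whether these numbers pair the samples. Same-numbered deviations showed no shared part (correlation -0.0137), which cannot tell how the arrays were handled. The replicate block gave 5641 and 5502 probe sets with 3 member genes higher and 2 lower. Of 360 list counts, 318 stayed within 1.5 times.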
